A study of Homo sapiens with 12 samples.

Results

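Untreated KP4 cells were compared with untreated MiaPaca2 cells, 2 established lines of human pancreatic ductal adenocarcinoma. The comparison used the 3 libraries of each line that had received the solvent DMSO for 48 h, 6 of the 12 libraries of the study, chosen by their labels alone. The culture medium of both lines was DMEM with 10% FBS, and messenger RNA was sequenced with a kit that selects polyadenylated RNA. The other 6 libraries came from the same lines given 100 nM trametinib, a MEK inhibitor, for 48 h, and share the estimate of spread of the test; their values appear below only where trametinib is named. Nothing in the labels ties the 3 libraries of a line to separate cultures. The p-values therefore reflect only how much these particular samples varied, and that variation may be technical. With 1 line of each kind, a difference between KP4 and MiaPaca2 belongs to this pair of lines.

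Pancreatic ductal adenocarcinoma arises from exocrine epithelium, and signals through the RAF, MEK and ERK kinases drive growth in many of its tumours. Loss of CDKN2A and SMAD4 is common: the first restrains the cell cycle and the other relays TGF-beta signals. Cell lines from this cancer range from epithelial cultures rich in keratins and cell junctions to mesenchymal ones rich in vimentin. They also differ in how they take up glucose, make amino acids and handle iron and oxidants.

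Levels are given as CPM, the usual depth-scaled count, after scaling with the trimmed mean of M values (TMM), and differences as log2 of KP4 over MiaPaca2 with the standard error (SE) of edgeR's fit. A gene was called where the edgeR quasi-likelihood test gave a Benjamini-Hochberg adjusted p under 0.05 and the difference was at least 2-fold. Total counts ran from 23207625 to 27859186 over the 6 libraries, and mitochondrial transcripts took 4.16 to 4.38% of the counts in KP4 and 2.25 to 3.32% in MiaPaca2. The first principal component of the 6 libraries separated the lines and held 87.7% of the variance. MiaPaca2 library 2 lay at 65.6 on it, nearer to KP4 than MiaPaca2 libraries 1 and 3 at 84.9 and 84.5, while the KP4 libraries lay between −78.8 and −78.0. Of the genes called higher in KP4, 69.5% had MiaPaca2 library 2 as the MiaPaca2 library nearest to KP4, and of the genes called lower, 66.9%. Values without that library are therefore given where they move a result.

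The 2 lines differed over much of the transcriptome. Of 16133 genes tested, 10170 passed the test (63%), 5148 of them higher in KP4 (31.9%) and 5022 lower (31.1%), and the median difference over all genes was 0.02 on the log2 scale. At 2-fold or more, 1428 genes were higher in KP4 (8.85%) and 1703 were lower (10.6%). Every count of called list members below is to be read beside these shares. Large differences lay mostly on one side: 82 genes were at least 8-fold higher in KP4 and 661 at least 8-fold lower, and at 32-fold the counts were 11 and 395. Without MiaPaca2 library 2, 1634 genes were called higher and 1777 lower.

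**Figure D1:**
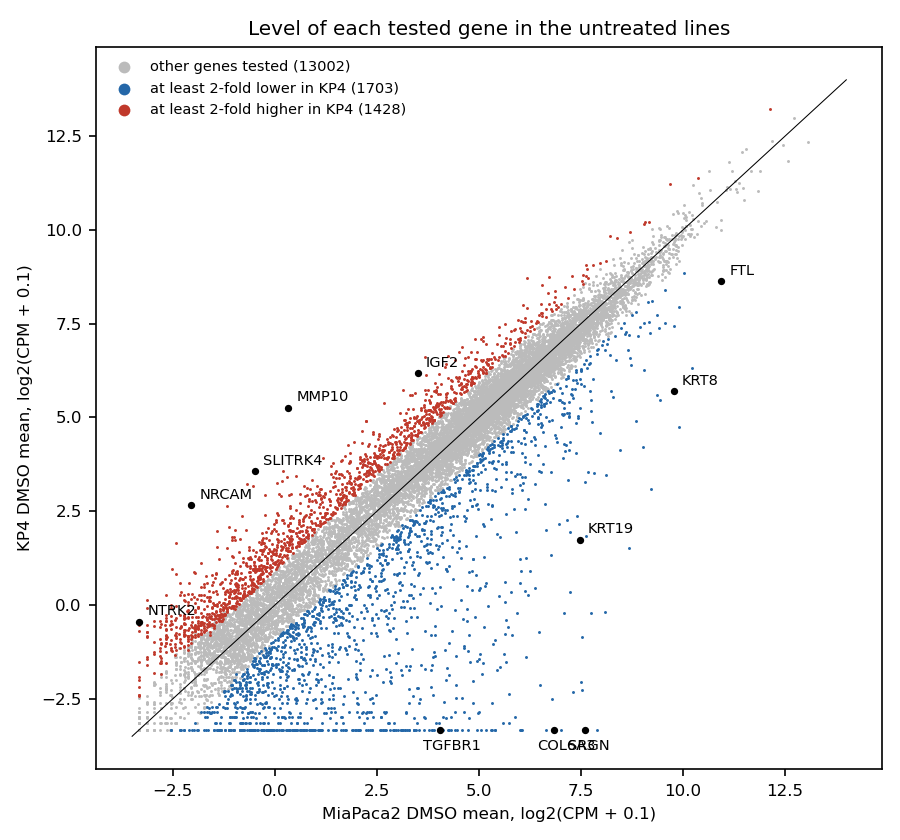
Mean level of each of the 16133 tested genes in untreated MiaPaca2 (horizontal) and untreated KP4 (vertical), as log2(CPM + 0.1), with the line of equal levels; each point is 1 gene. The 1703 genes called lower in KP4 reach down to the row of genes at 0 counts in KP4, whereas the 1428 genes called higher in KP4 stay closer to the line of equal levels.

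The same asymmetry was seen in how low each line fell for genes that the other expressed. Of 9320 genes of at least 10 CPM in KP4, 0 were under 1% of the KP4 level in MiaPaca2, 3 were under 10% and 20 under 20%, and the 0.1 percentile of that share was 15.4%. In the other direction, of 9378 genes of at least 10 CPM in MiaPaca2, 94 were under 1% of that level in KP4, 195 under 10% and 277 under 20%. The trametinib libraries gave the same asymmetry, with 0 of 9407 KP4 genes and 66 of 9693 MiaPaca2 genes under 1% in the other line. The KP4 genes fell less far there than in DMSO: 6 were under 20% in MiaPaca2, and the 0.1 percentile was 25.6%.

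Another reading took genes chosen in the trametinib libraries and read them in the DMSO libraries. The 50 genes most specific to KP4 had medians of 24.5%, 34.0% and 22.3% of their KP4 level in MiaPaca2 libraries 1, 2 and 3. Of the 50 genes most specific to MiaPaca2, 41 could be read, and their medians in the KP4 libraries ran from 0 to 0.0732%. Some genes did fall lower in MiaPaca2: MMP10 reached 3.00% and NRCAM 2.27% of the KP4 level, and NTRK2, NAP1L3, SYNPO2 and GRB14 had 50, 50, 47 and 41 counts over the KP4 libraries and 0 in MiaPaca2. These readings were chosen after the data were seen. Whether the MiaPaca2 libraries held RNA of KP4 cells was not tested.

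**Figure D2:**
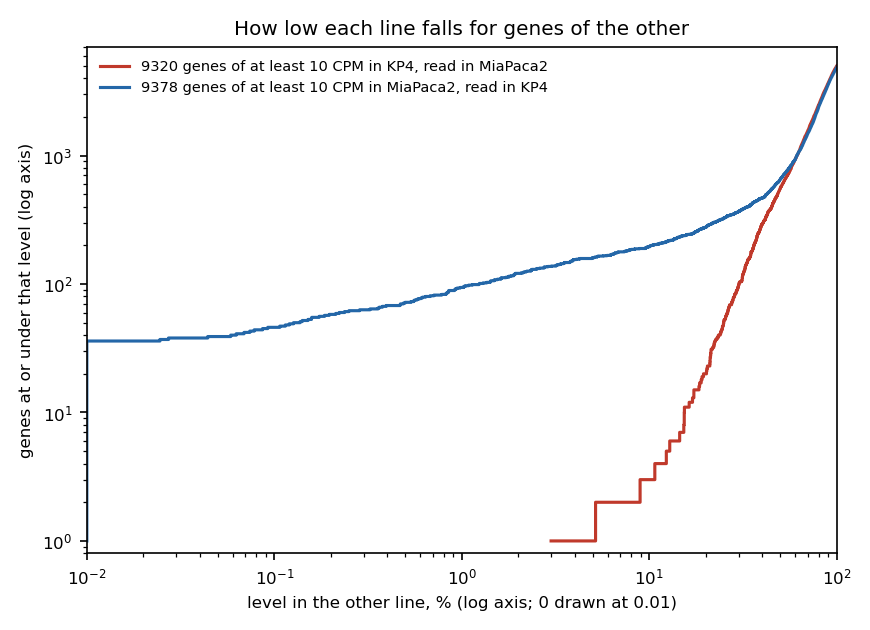
Number of genes (vertical, log axis) whose level in the other line was at or under a given percent of their level in the line that expressed them (horizontal, log axis, with 0 drawn at 0.01), for 9320 genes of at least 10 CPM in KP4 and 9378 of at least 10 CPM in MiaPaca2. For KP4 genes the curve starts at 3.00% (MMP10), whereas for MiaPaca2 genes 94 lie under 1%.

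Many genes were counted in MiaPaca2 and had no count in KP4. At a mean of at least 1 CPM in MiaPaca2, 130 genes had 0 counts in all 3 KP4 libraries, and 19 of them reached 20 CPM. No gene of at least 1 CPM in KP4 was at 0 counts in all 3 MiaPaca2 libraries. A count of 0 over the KP4 group allows a level of up to 0.0380 CPM, set at 3 counts, and folds against it are lower bounds that cover counting error only.

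DDIT4L, a stress-induced inhibitor of mTOR signalling (chromosome 4, 100185870 to 100190782), was at 259.5, 221 and 232 CPM in MiaPaca2 libraries 1 to 3, at least 6250.2-fold higher than in KP4. SRGN, the core protein of the proteoglycan serglycin (chromosome 10, 69088106 to 69104811), was at 219, 157 and 203 CPM in MiaPaca2, at least 5085-fold higher. The long non-coding RNA UCA1 (chromosome 19, 15828206 to 15836326) was at 141, 108 and 136 CPM, at least 3374-fold higher. All 3 KP4 libraries were at 0 for these genes, so the groups did not overlap. Matrix genes were among them: COL6A3, a chain of collagen VI (chromosome 2, 237324003 to 237414375), was at 125, 92.3 and 125 CPM and at least 3005-fold higher in MiaPaca2, COL1A2 of collagen I was at 119, 67.9 and 115 CPM, and COL4A1 of collagen IV was at 27.7, 20.3 and 24.1 CPM. The kallikrein protease KLK6 was at 66.1, 57.4 and 71.3 CPM in MiaPaca2, the caveolar protein CAVIN2 at 68.7, 53.7 and 69.9 CPM and the elastase inhibitor SERPINB1 at 47.5, 28.3 and 44.5 CPM. In every gene named in this paragraph, MiaPaca2 library 2 was the lowest of the 3.

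The 5 neighbours on chromosome 19 listed here lay between positions 37411155 and 37692337: ZNF569, ZNF570, ZNF793, ZNF571 and ZFP30 were all at 0 counts in KP4. They encode zinc finger proteins of the KRAB type, a family known for silencing transposable elements. ZFP30 was at 17.0, 12.3 and 13.99 CPM in MiaPaca2, ZNF569 at 10.3, 7.24 and 8.68, ZNF570 at 9.03, 4.98 and 6.78, ZNF793 at 6.59, 5.28 and 5.801 and ZNF571 at 1.36, 1.45 and 0.974. The lowest of the 3 MiaPaca2 libraries was library 2 for ZFP30, ZNF569, ZNF570 and ZNF793, and library 3 for ZNF571. The epithelial transcription factors ELF3 and EHF were also near 0 in KP4, with 3 and 1 counts over its libraries. ELF3 was at 26.8, 20.1 and 26.6 CPM in MiaPaca2, a ratio of summed counts of 645 (95% interval 220.4 to 3132), and EHF at 61.9, 35.4 and 60.9 CPM, a ratio of 4164 (95% interval 747 to 164504).

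The 250 bases before a RefSeq start of ZNF569 and ZNF793 from that run, and of ELF3 and EHF as epithelial factors, are shown because they are upstream sequences of genes present in MiaPaca2 and near 0 in KP4. Capitals mark CG pairs, the sites of DNA methylation. They come from RefSeq on GRCh38.p14 and read 5′ to 3′ on the strand of the gene. Each is the first window listed for its gene. For ZNF569, ELF3 and EHF it lies inside the gene as annotated for the counts. ELF3 and EHF begin at 202007945 and 34621093, and ZNF569, on the minus strand, spans 37411155 to 37469275. The ZNF569 window also overlaps ZNF570, which spans 37467585 to 37488652. Their positions are chr19:37467445-37467694 (minus strand), chr19:37506689-37506938, chr1:202010337-202010586 and chr11:34624007-34624256 (plus strand).
ZNF569: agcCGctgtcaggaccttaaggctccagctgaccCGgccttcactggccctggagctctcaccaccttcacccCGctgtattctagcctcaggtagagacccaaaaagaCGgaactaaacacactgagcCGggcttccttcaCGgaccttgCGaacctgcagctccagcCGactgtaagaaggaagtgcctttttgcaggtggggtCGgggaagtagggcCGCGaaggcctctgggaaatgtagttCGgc
ZNF793: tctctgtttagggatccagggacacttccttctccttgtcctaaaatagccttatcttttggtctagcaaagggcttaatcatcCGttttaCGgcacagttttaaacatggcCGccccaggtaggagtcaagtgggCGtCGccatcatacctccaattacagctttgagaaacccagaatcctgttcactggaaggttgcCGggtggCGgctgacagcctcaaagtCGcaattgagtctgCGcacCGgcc
ELF3: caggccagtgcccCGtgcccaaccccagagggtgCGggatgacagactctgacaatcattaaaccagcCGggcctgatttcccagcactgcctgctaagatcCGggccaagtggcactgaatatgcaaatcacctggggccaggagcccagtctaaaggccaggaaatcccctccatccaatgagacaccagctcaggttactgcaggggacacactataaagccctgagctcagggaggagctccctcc
EHF: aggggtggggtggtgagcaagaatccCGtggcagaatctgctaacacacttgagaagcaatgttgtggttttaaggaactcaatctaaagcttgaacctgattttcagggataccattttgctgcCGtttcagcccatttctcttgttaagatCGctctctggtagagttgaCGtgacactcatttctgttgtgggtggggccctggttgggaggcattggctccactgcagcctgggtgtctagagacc
The windows of ZNF569 and ZNF793 held 12 and 10 CG pairs, and those of ELF3 and EHF 4 each. Over the first listed window of 11591 tested genes the median was 21 CG pairs, and 84.1% held 10 or more, against 51.9% of all 27305 genes with a window. For the 85 of the 130 genes at 0 in KP4 that had a window, the median was 13 and 58.8% held 10 or more. Genes called higher in KP4 (938 with a window) and lower (1101) each had a median of 18. A CG pair is read identically on both strands, and these counts describe the windows only: methylation was not measured here.

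Other runs of neighbouring genes were expressed in MiaPaca2 and at or under 30 counts over the KP4 libraries. On chromosome 9, 98288082 to 99154192, GABBR2, ANKS6, GALNT12 and TGFBR1 had at most 2 counts each in KP4. ANKS6 was at 35.9, 30.01 and 33.2 CPM in MiaPaca2, GABBR2, a subunit of the GABA-B receptor, at 11.4, 13.6 and 13.0 with a ratio of summed counts of 499 (95% interval 138 to 4128), and GALNT12, an enzyme of mucin-type glycosylation, at 3.96, 3.06 and 2.79. Chromosome 19 held further zinc finger runs, ZNF471 with ZFP28, ZNF470 and ZNF71, and ZNF66 with ZNF85, ZNF430 and ZNF714, and the kallikreins KLK5, KLK6 and KLK7. COL6A3 lay in a run with MLPH and RAB17 on chromosome 2, and ABCA8, ABCA6 and ABCA10 formed one on chromosome 17. VEPH1, PTX3 and SLC66A1L made a run on chromosome 3. No run of this kind was low in MiaPaca2 and expressed in KP4. Among well expressed genes such a run could hardly be found. The 50 genes most specific to KP4 kept medians of 22.3 to 34.0% of their KP4 level in the MiaPaca2 libraries. Copy number was not measured here.

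Among genes of at least 10 CPM in KP4, the largest differences in its favour included secreted and membrane proteins and enzymes of glycan processing. MMP10, the matrix metalloproteinase stromelysin-2 (chromosome 11, 102770503 to 102780628), was at 39.5, 37.8 and 37.6 CPM in KP4 and 0.948, 1.79 and 0.709 in MiaPaca2, a log2 difference of 5.05 (SE 0.18) with an edgeR adjusted p of 6.13e-16. The growth factor gene IGF2 (chromosome 11, 2129112 to 2149603) was at 72.3, 70.8 and 75.3 CPM in KP4 and 7.95, 15.7 and 9.92 in MiaPaca2, a difference of 2.70 (SE 0.17) that became 3.03 without MiaPaca2 library 2. MAN1A1, a mannosidase that trims N-glycans, was at 93.3, 100.1 and 101 CPM in KP4 and 11.6, 14.3 and 11.96 in MiaPaca2. No library of one line overlapped the other in these 3 genes, and MiaPaca2 library 2 was the highest MiaPaca2 library in each. Further genes of this group were SLITRK4 (4.25), the serine protease TMPRSS11E (3.47), the B-lineage transcription factor EBF1 (3.22), the alkaline phosphatase ALPL (3.01), the adhesion molecule CADM1 (2.78), AMIGO2 (2.71), the heparan sulfate genes GPC4 (2.70) and HS6ST2 (2.69), and NPTX1 (2.62), all log2 differences.

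The labelled cell type, ductal adenocarcinoma, was checked against 8 ductal markers. In both lines CFTR was at 0 counts and EPCAM stayed under 0.5 CPM in every library, so the ductal pattern was partial in each. The remaining markers split: keratins 8, 18 and 19 and SOX9 were higher in MiaPaca2 and keratin 7 was higher in KP4 at a low level. Summed over the 8 markers, levels ran from 361 to 375 CPM in KP4 and from 1827 to 2199 CPM in MiaPaca2. In bulk libraries, fewer cells of a type and less RNA per cell cannot be told apart.

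KRT19, a keratin of ductal cells (chromosome 17, 41523617 to 41528308), was at 3.80, 2.68 and 3.25 CPM in KP4 and 179, 159.6 and 192 in MiaPaca2, a log2 difference of −5.77 (SE 0.10) with an edgeR adjusted p of 1.15e-21. KRT8, which pairs with KRT18 in simple epithelia (chromosome 12, 52897187 to 52949954), was at 50.8, 54.9 and 49.9 CPM in KP4 and 851, 764 and 999.3 in MiaPaca2, a difference of −4.07 (SE 0.09). KRT18 was at 177, 187 and 185 CPM in KP4 and 750.4, 705 and 818 in MiaPaca2, a difference of −2.05 (SE 0.05). All KP4 libraries lay below all MiaPaca2 libraries for these keratins. The reverse held for KRT7, at 2.53, 2.17 and 2.75 CPM in KP4 and 0.577, 1.11 and 0.93 in MiaPaca2 (log2 1.51). Pseudogene copies of KRT8 and KRT18 make their counts uncertain, since the handling of multiply mapped reads is not given.

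**Figure D3:**
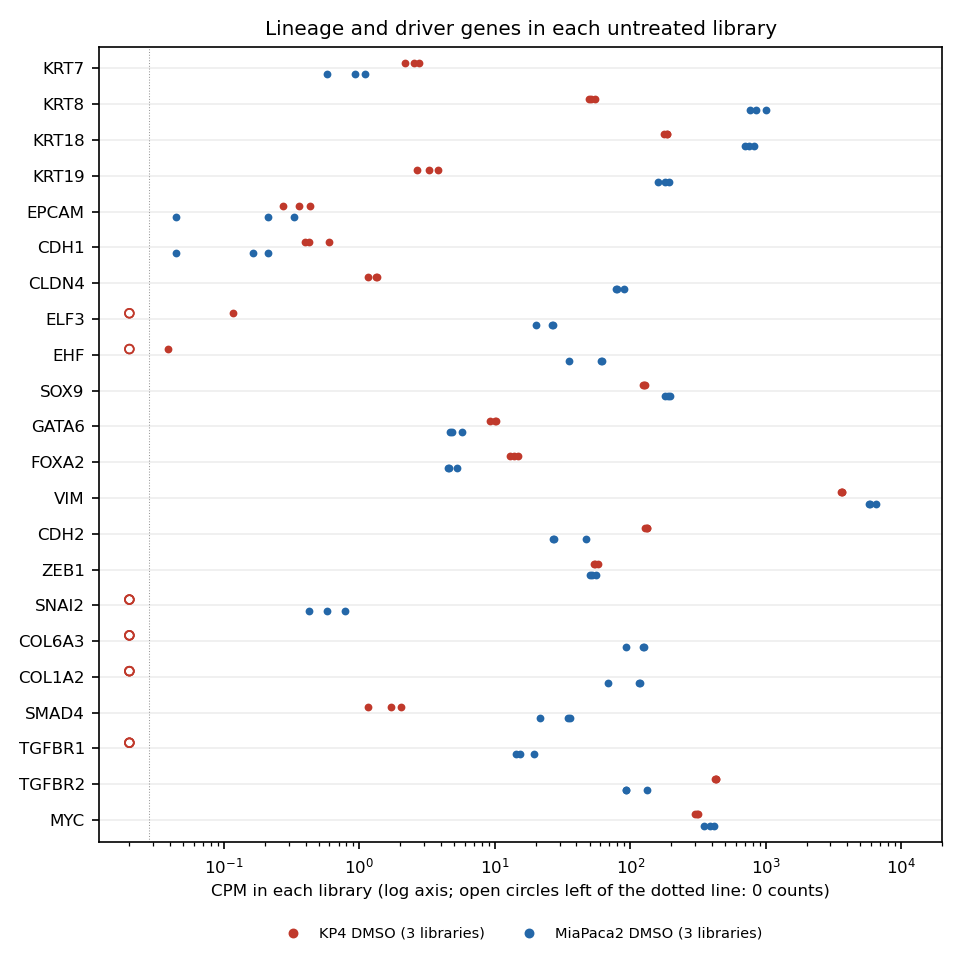
Level of 22 lineage and driver genes in each untreated library, as CPM on a log axis; filled points are single libraries of KP4 and MiaPaca2, and open circles left of the dotted line are libraries at 0 counts. KRT8, KRT18, KRT19, CLDN4, ELF3, EHF, SMAD4 and TGFBR1 lie to the right in MiaPaca2, and CDH2, FOXA2, GATA6 and TGFBR2 in KP4.

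Junction genes did not follow a single direction. Of 36 tested genes of epithelial junctions and keratins, 9 were called higher in KP4 and 11 lower, with a median of 0.43. Those are 25% and 30.6%, beside 8.85% and 10.6% of all genes tested. CLDN4, a claudin of tight junctions, was at 1.35, 1.16 and 1.32 CPM in KP4 and 78.0, 80.1 and 89.5 in MiaPaca2 (log2 −6.01, SE 0.13), and CLDN11 at 0.0396, 0.116 and 0.0715 and 124, 82.4 and 123. CDH1, which encodes E-cadherin, stayed under 0.6 CPM in every library, at 0.594, 0.427 and 0.393 CPM in KP4 and 0.165, 0.213 and 0.0443 in MiaPaca2. In contrast, SPINT1, an inhibitor of membrane serine proteases, was higher in KP4 by 1.61 on the log2 scale.

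Mesenchymal genes were also mixed, with 10 called higher and 12 lower in KP4 of 34 tested and a median of −0.10. Both shares, 29.4% and 35.3%, lay above the 8.85% and 10.6% of all genes tested. Vimentin (VIM), the intermediate filament of mesenchymal cells, was at 3635, 3614 and 3630.3 CPM in KP4 and 5785, 5926 and 6458 in MiaPaca2, a log2 difference of −0.74 (SE 0.03). CDH2, which encodes N-cadherin, was at 132, 133 and 128 CPM in KP4 and 27.3, 47.3 and 27.1 in MiaPaca2, a difference of 1.95 (SE 0.18) and of 2.27 without MiaPaca2 library 2. The libraries of the lines did not overlap in either gene, but the directions were opposite. ZEB1, a repressor of epithelial genes, was at 57.9, 54.7 and 53.8 CPM in KP4 and 55.9, 52.0 and 49.95 in MiaPaca2, with overlapping libraries and an edgeR adjusted p of 0.268. SNAI2, another such repressor, had 0 counts in KP4 and 0.783, 0.426 and 0.576 CPM in MiaPaca2, at least 15.7-fold higher. The matrix protein tenascin C (TNC) was higher in KP4 by 2.25, whereas fibulin FBLN1 was at 0 in KP4 and 17.2, 14.3 and 19.1 CPM in MiaPaca2. Of 27 tested collagen chains, 7 were called higher in KP4 and 9 lower (25.9% and 33.3%).

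Transcription factors of the pancreas differed in both directions, with 6 of 25 tested called higher in KP4 and 9 lower (24% and 36%) and a median of 0.11. FOXA2, a factor of endoderm, was at 13.0, 13.8 and 14.9 CPM in KP4 and 4.57, 4.47 and 5.23 in MiaPaca2 (log2 1.55, SE 0.13), and GATA6 at 9.93, 10.2 and 9.23 and 4.70, 5.70 and 4.78 (log2 0.95, SE 0.12), which passed the test below 2-fold. SOX9, the ductal progenitor factor, was at 126, 127 and 124 CPM in KP4 and 181, 197 and 188 in MiaPaca2, a log2 difference of −0.58 (SE 0.05). PROX1 was at 5.18, 5.09 and 4.90 CPM in KP4 and 0.0824, 0.936 and 0.399 in MiaPaca2, a log2 difference of 3.41 (SE 0.33) that became 4.40 without MiaPaca2 library 2. PDX1, the master factor of pancreas development, was at 2.22, 1.44 and 1.22 CPM in KP4 and 1.40, 1.45 and 1.86 in MiaPaca2 and did not pass the test (edgeR adjusted p 0.907). Among 58 other homeobox, T-box and forkhead factors tested, 10 were called higher and 22 lower in KP4, with a median of −0.57. The shares were 17.2% and 37.9%, beside 8.85% and 10.6% of all genes tested. IRX3 and ALX4 were at 0 counts in KP4 and at 14.3, 12.4 and 21.9 and 4.45, 2.94 and 4.52 CPM in MiaPaca2, whereas TBX18 was higher in KP4 by 2.23.

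Markers of other cell types were summed as short sets of defining genes and as longer lists. All 4 acinar markers (PRSS1, CPA1, CELA3A and PNLIP) were at 0 counts in both lines, as were INS, GCG, INSM1, FAP, CD3E and KDR. The defining endocrine markers summed to 19.8 to 23.7 CPM in KP4 and 12.1 to 16.05 in MiaPaca2, nearly all from the synaptic vesicle gene SYP. The longer endocrine and neuroendocrine list of 24 genes had the opposite order, at 128 to 144 CPM in KP4 and 222 to 265 in MiaPaca2. Its 10 tested genes held 2 called higher in KP4 and 3 lower, among them the granule protein gene SCG2, at 28.1, 23.5 and 29.04 CPM in KP4 and 140.4, 107 and 139 in MiaPaca2. The 6 fibroblast markers summed to 8.19 to 9.51 CPM in KP4 and 8.90 to 11.6 in MiaPaca2, with LUM, DCN and PDGFRA near 0. The longer fibroblast list of 15 genes, which adds the collagen gene COL1A2, summed to 25.8 to 26.8 CPM in KP4 and 99.4 to 152 in MiaPaca2, with 2 of 8 tested genes called higher in KP4 and 4 lower. The 4 immune markers summed to 1.65 to 1.71 CPM in KP4 and 4.09 to 6.02 in MiaPaca2, and the 4 endothelial markers to 1.48 to 2.18 and 1.95 to 2.39. The longer immune list of 18 genes summed to 2.29 to 2.89 CPM in KP4 and 5.02 to 8.45 in MiaPaca2, and the longer endothelial list of 12 genes to 6.37 to 7.80 and 23.7 to 26.2. The part of such cells in the differences between the lines was not tested. Of 24 markers of the classical tumour subtype, 1 was tested and it did not pass the test, and of 13 tested basal-like markers 2 were called higher in KP4 and 3 lower.

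Genes of neural adhesion and axon guidance leaned toward KP4, in a list chosen with earlier results of these data known. Of 37 tested, 17 were called higher in KP4 and 4 lower (45.9% and 10.8%, beside 8.85% and 10.6% of all genes tested), with a median of 0.81. The neural cell adhesion molecule NRCAM was at 6.57, 5.43 and 6.69 CPM in KP4 and 0.124, 0.213 and 0.0886 in MiaPaca2, a log2 difference of 5.41 (SE 0.31) with an edgeR adjusted p of 5.36e-14. NCAM1 was at 8.11, 6.91 and 7.51 CPM in KP4 and 0.495, 1.28 and 0.443 in MiaPaca2 (log2 3.34, SE 0.24, and 3.99 without MiaPaca2 library 2), and the growth cone gene GAP43 at 1.70, 1.86 and 1.43 and 0, 0.128 and 0.133. Among more abundant members, the guidance receptor ROBO1 differed by 1.36, the semaphorin SEMA3E by 1.79, the protocadherin PCDH7 by 2.05 and the neurexin-family gene CNTNAP2 by 1.52, all higher in KP4. The 4 called lower were PCDH1, at 2.26, 2.52 and 2.07 CPM in KP4 and 69.2, 64.1 and 79.6 in MiaPaca2, PCDH9 (−4.14), PLXND1 (−2.57) and NRP2 (−1.96).

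Integrins and laminins were called higher in KP4 for 8 of 25 tested and lower for 2, with a median of 0.41. The shares were 32% and 8%, beside 8.85% and 10.6% of all genes tested. ITGA2 of a collagen receptor was at 129, 139 and 137 CPM in KP4 and 23.9, 42.0 and 23.9 in MiaPaca2, a log2 difference of 2.17 (SE 0.19). The 2 called lower were ITGB4, the integrin chain of hemidesmosomes, at 15.6, 16.5 and 16.9 CPM in KP4 and 165, 171 and 166 in MiaPaca2, and the laminin chain LAMA2, at 0.831, 0.893 and 0.787 and 12.4, 7.45 and 11.4. Among proteases of the matrix and their inhibitors, 5 of 20 were called higher and 3 lower (25% and 15%), with a median of 0.47. Beside MMP10, the gelatinase MMP9 was higher at 4.08, 4.62 and 2.97 CPM against 0.288, 0.724 and 0.221 (log2 3.22, SE 0.38, and 3.90 without MiaPaca2 library 2), and MMP11 was lower at 1.98, 3.07 and 2.58 against 13.9, 11.3 and 16.2.

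**Figure D4:**
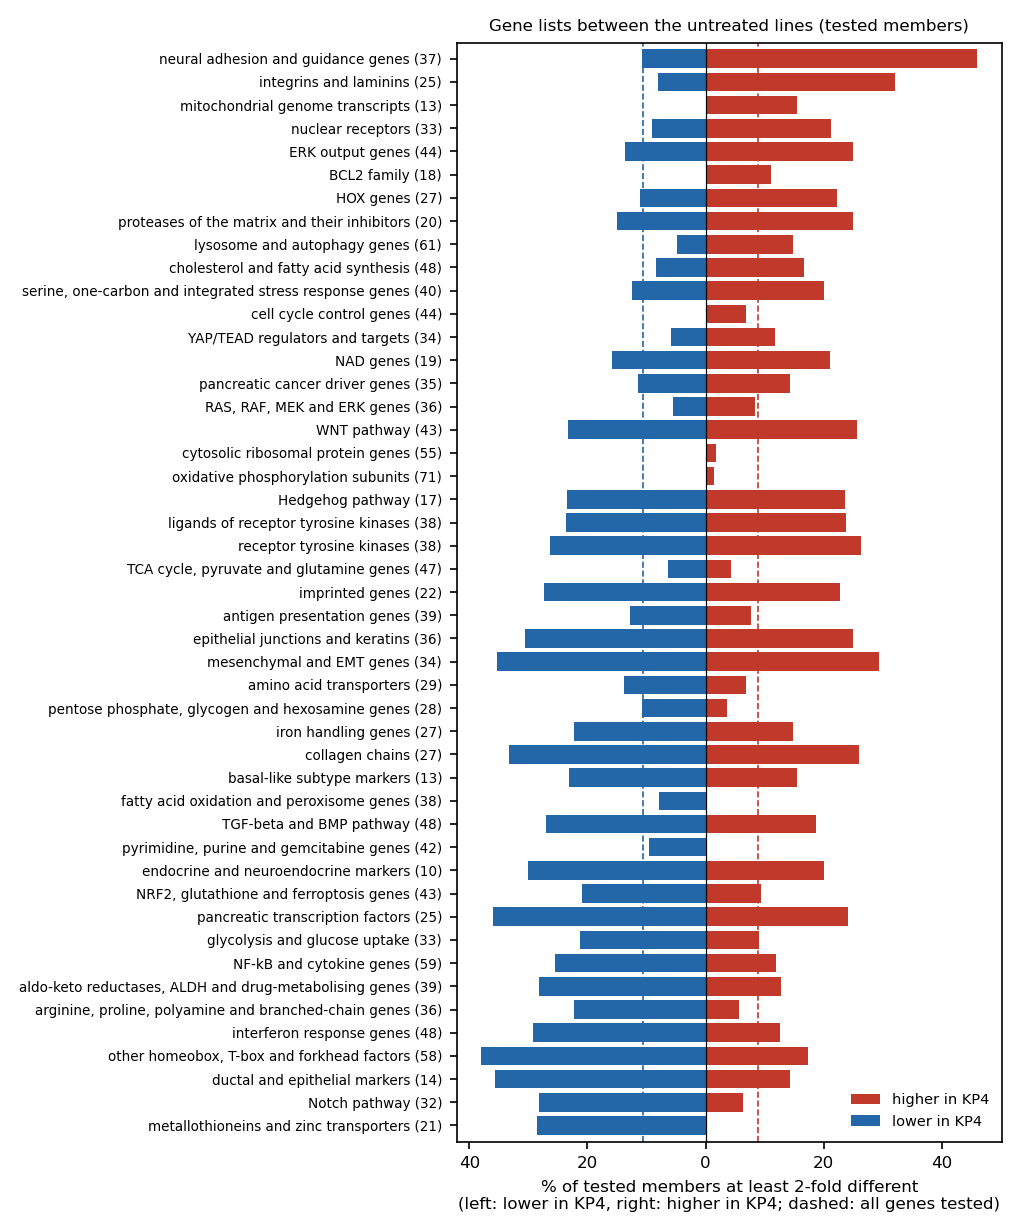
Percent of tested members called at least 2-fold higher (right) or lower (left) in KP4 for 47 gene lists with at least 10 tested members (number in brackets); dashed lines mark the shares over all genes tested, 8.85% higher and 10.6% lower. Neural adhesion and guidance genes stand farthest to the right in higher calls, at 45.9%, and the homeobox, T-box and forkhead list farthest to the left in lower calls, at 37.9%. The lists were chosen with earlier results of these data known.

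Among the tumour suppressors, the CDKN2A locus had no counts in either line and SMAD4 was low in KP4. CDKN2A and CDKN2B, inhibitors of the cell cycle kinases CDK4 and CDK6, and the neighbouring enzyme gene MTAP had 0 counts in all 6 libraries. Copy number was not measured. SMAD4, the shared mediator of TGF-beta and BMP signals (chromosome 18, 51028394 to 51085045), was at 2.02, 1.16 and 1.72 CPM in KP4 and 35.7, 21.5 and 34.4 in MiaPaca2, a log2 difference of −4.22 (SE 0.21) with an edgeR adjusted p of 7.51e-11. All KP4 libraries lay far below all MiaPaca2 libraries.

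The growth regulator MYC was at 311, 317 and 299 CPM in KP4 and 351, 412 and 390.4 in MiaPaca2, a log2 difference of −0.32 (SE 0.05), and passed the test below 2-fold. RNF43, a ubiquitin ligase that restrains WNT receptors, was higher in KP4 at 7.76, 5.94 and 6.55 CPM against 0.989, 2.21 and 1.82. CDKN1A, which encodes the cell cycle inhibitor p21, was at 105, 112 and 104 CPM in KP4 and 18.5, 30.3 and 19.4 in MiaPaca2 (log2 2.24, SE 0.14), and the stress cytokine GDF15 at 36.6, 35.7 and 40.3 and 6.92, 15.5 and 8.59. The polo-like kinase gene PLK2 was at 44.2, 45.4 and 43.4 CPM in KP4 and 732, 621 and 731 in MiaPaca2, a log2 difference of −3.97 (SE 0.05). Of 44 cell cycle control genes, 3 were called higher in KP4 and 0 lower, while 17 passed the test as lower and 13 as higher at any size of difference (38.6% and 29.5%, beside 31.1% and 31.9% of all genes tested), and the proliferation marker MKI67 differed by 0.17.

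Receptors of the TGF-beta pathway differed sharply. TGFBR1, the signalling kinase of the receptor (chromosome 9, 99104038 to 99154192), had 0 counts in KP4 and was at 19.5, 14.4 and 15.4 CPM in MiaPaca2, at least 432-fold higher. TGFBR2, its ligand-binding partner (chromosome 3, 30606502 to 30694142), was at 427, 426 and 421 CPM in KP4 and 92.1, 132 and 93.5 in MiaPaca2, a log2 difference of 2.00 (SE 0.11) with an edgeR adjusted p of 1.03e-07. The co-receptor endoglin (ENG) was at 0.0792, 0.155 and 0.143 CPM in KP4 and 90.0, 74.9 and 103 in MiaPaca2. So of these 3 receptor genes, 2 were near absent in KP4 and 1 was higher there. The ligand TGFB1 was higher in KP4 at 289, 294 and 299 CPM against 97.3, 134 and 116, and the activin subunit INHBA at 2.97, 4.15 and 3.11 against 0.33, 0.511 and 0.354. ID1, ID2 and ID3, targets of BMP signalling, were lower in KP4, at −3.23, −1.36 and −2.54 on the log2 scale, and the inhibitor SMAD7 was higher by 1.68. Of 48 tested pathway genes, 9 were called higher and 13 lower, with a median of 0.16.

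Receptor tyrosine kinases split evenly, with 10 of 38 tested called in each direction and a median of −0.29. MET, the receptor of hepatocyte growth factor, was at 919, 911 and 899 CPM in KP4 and 263, 380.3 and 240.1 in MiaPaca2, a log2 difference of 1.63 (SE 0.14) and of 1.85 without MiaPaca2 library 2. FGFR1 was at 219.8, 222 and 220.0 CPM in KP4 and 84.6, 107 and 90.0 in MiaPaca2 (log2 1.23, SE 0.06), and MERTK of the TAM family at 60.0, 60.0 and 58.2 and 13.3, 22.5 and 14.1. The collagen receptor DDR2 was at 1.62, 2.10 and 1.65 CPM in KP4 and 74.0, 54.0 and 67.4 in MiaPaca2, a difference of −5.18 (SE 0.13), and the ephrin receptor EPHA4 at 5.18, 4.19 and 4.61 and 158, 124 and 143, a difference of −4.93 (SE 0.10). Higher in KP4 were therefore MET, FGFR1 and MERTK, and lower were DDR2, EPHA4 and IGF1R (log2 −1.23). EGFR was at 289, 293 and 299 CPM in KP4 and 301, 304 and 299 in MiaPaca2, with overlapping libraries and an edgeR adjusted p of 0.374. AXL and ERBB2 passed the test below 2-fold, at 0.68 and −0.52. Of 38 ligands of these receptors, 9 were called in each direction, with a median of 0.27: NRG1, which binds ERBB3 and ERBB4, was higher in KP4 by 1.52, and the EGFR ligands AREG and BTC were lower, at −2.11 and −3.34.

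Of 9 tested genes for IGF-binding proteins and for the IGF2 mRNA-binding proteins, 2 were called higher in KP4 (IGFBP7 and IGF2BP1) and 3 lower (IGFBP3, IGFBP4 and IGFBP6), with a median of −0.45. IGFBP6, whose product prefers IGF2, was at 0.158, 0.427 and 0.787 CPM in KP4 and 181, 151 and 217 in MiaPaca2, a log2 difference of −8.59 (SE 0.26). IGFBP4 was at 22.9, 23.6 and 25.6 CPM in KP4 and 253, 215 and 282 in MiaPaca2, a difference of −3.38 (SE 0.08). IGF2BP1, an RNA-binding protein of fetal tissue, was at 191, 189 and 191 CPM in KP4 and 57.1, 78.4 and 60.1 in MiaPaca2. In the imprinted list, 5 of 22 tested genes were called higher in KP4 and 6 lower, with a median of −0.19: H19, the non-coding neighbour of IGF2, was at 0.396, 0.311 and 0.322 CPM in KP4 and 3.998, 3.66 and 3.72 in MiaPaca2, and SNRPN was at 0 counts in KP4 and 2.31, 1.92 and 1.77 CPM in MiaPaca2.

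Output genes of ERK, transcribed when MAP kinase signalling is active, leaned toward KP4, with a median of 0.47. Of 44 tested, 11 were called higher and 6 lower (25% and 13.6%, beside 8.85% and 10.6% of all genes tested). Both shares thus lay above those of all genes. DUSP6, a phosphatase that inactivates ERK (chromosome 12, 89347232 to 89353271), was at 83.4, 85.6 and 88.8 CPM in KP4 and 13.1, 26.5 and 15.2 in MiaPaca2, a log2 difference of 2.23 (SE 0.21) with an edgeR adjusted p of 4.91e-06, and of 2.60 without MiaPaca2 library 2. The secreted neuropeptide precursor gene VGF was at 423, 419.9 and 421 CPM in KP4 and 56.5, 80.0 and 78.6 in MiaPaca2, a difference of 2.56 (SE 0.12). LIF, a cytokine of the interleukin 6 family, was at 157, 162 and 151 CPM in KP4 and 49.9, 67.9 and 48.1 in MiaPaca2. The KP4 libraries lay above all MiaPaca2 libraries in these genes, with MiaPaca2 library 2 the highest of its line. EGR1, JUN, ETS1 and IER3 were also higher in KP4, by 1.03, 1.26, 1.26 and 1.24. On the other side, EPHA4 and the ligand gene AREG, also in this list, were lower in KP4, at −4.93 and −2.11. So were the feedback inhibitors SPRY1 and SPRY2, at −1.47 and −1.32, and the ligand gene EREG at −1.77. FOSL1 was at 182, 195 and 199.7 CPM in KP4 and 164, 208 and 189 in MiaPaca2 and did not pass the test (edgeR adjusted p 0.58; 0.0241 without MiaPaca2 library 2). Of the core RAS, RAF, MEK and ERK genes, 3 of 36 were called higher and 2 lower (8.33% and 5.56%, neither above the share of all genes). Among those lower was MAPK3, which encodes ERK1, at 40.8, 43.9 and 43.1 CPM in KP4 and 92.1, 82.9 and 100.3 in MiaPaca2.

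**Figure D5:**
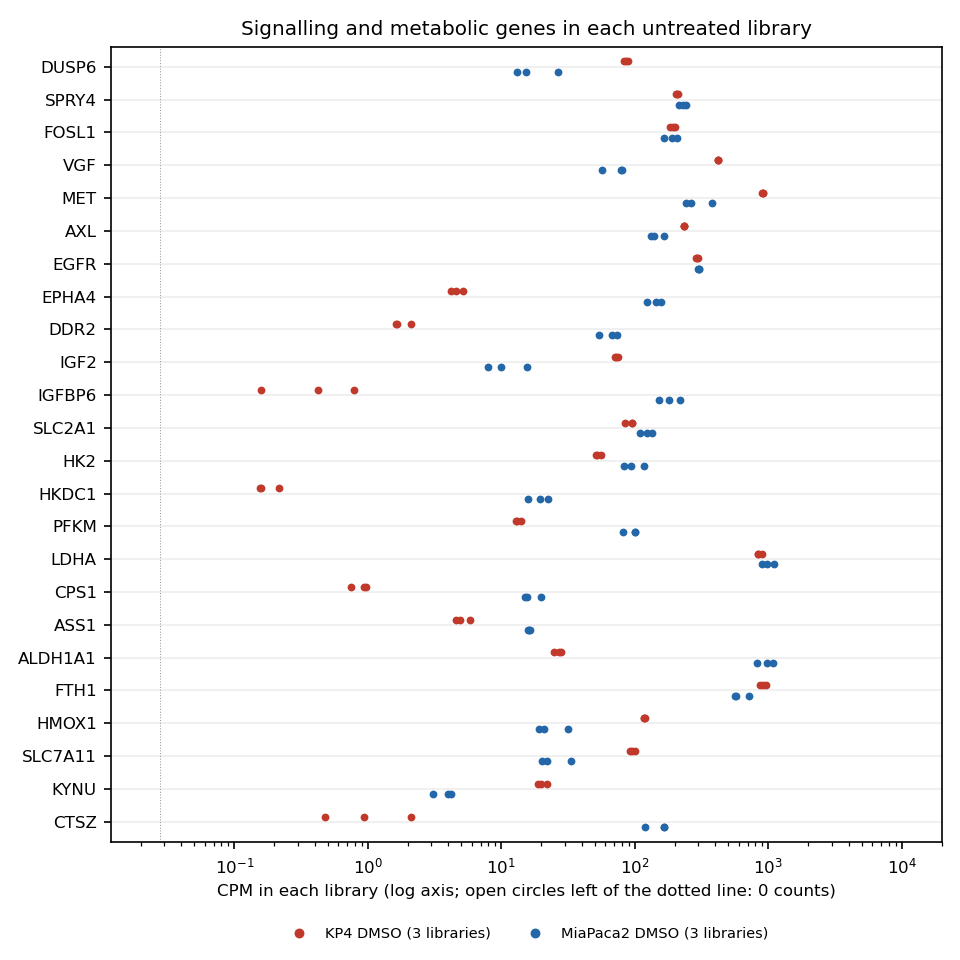
Level of 24 signalling and metabolic genes in each untreated library, as CPM on a log axis; points are single libraries of KP4 and MiaPaca2. DUSP6, VGF, MET, IGF2, HMOX1, SLC7A11 and KYNU lie to the right in KP4, EPHA4, DDR2, IGFBP6, HKDC1, PFKM, CPS1, ALDH1A1 and CTSZ in MiaPaca2, and EGFR and FOSL1 overlap between the lines.

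In the Notch pathway, most called genes were lower in KP4, with a median of −0.31. Of 32 tested genes, 2 were called higher and 9 lower (6.25% and 28.1%, beside 8.85% and 10.6% of all genes tested). DNER, an atypical Notch ligand (chromosome 2, 229357629 to 229714558), was at 0.0396, 0.116 and 0.143 CPM in KP4 and 166, 136 and 175 in MiaPaca2, a log2 difference of −10.55 (SE 0.17). JAG1 and JAG2 were lower, at −2.75 and −2.43, and the receptors NOTCH1, NOTCH3 and NOTCH4 at −1.53, −2.44 and −3.28. The glycosyltransferase MFNG, which modifies Notch receptors, was higher in KP4 by 2.41. Of 17 Hedgehog genes, 4 were called in each direction, with a median of 0.24: the ligand SHH was at 0.514, 0.699 and 0.787 CPM in KP4 and 23.8, 24.4 and 24.6 in MiaPaca2, and the co-receptor GAS1 at 0.119, 0.116 and 0.143 and 23.7, 14.9 and 25.8. The targets GLI1 and PTCH1 were higher in KP4, GLI1 at 70.8, 67.9 and 70.0 CPM against 22.4, 29.9 and 23.2 and PTCH1 by 1.26 on the log2 scale. WNT genes were called in both directions, 11 higher and 10 lower of 43, and the secreted inhibitor SFRP1 was at 0 counts in KP4 and 7.62, 4.13 and 7.40 CPM in MiaPaca2. Of 34 genes of the YAP and TEAD group, 4 were called higher and 2 lower.

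Interferon response genes were mostly lower in KP4 among those called, 14 of 48 against 6 higher, with a median over the list of −0.05. The shares were 29.2% lower and 12.5% higher, beside 10.6% and 8.85% of all genes tested. MX2, an antiviral GTPase, had 1 count over the KP4 libraries and was at 16.5, 14.7 and 17.0 CPM in MiaPaca2, a ratio of 1271 (95% interval 228 to 50251). IFITM1, a membrane restriction factor, was at 0.198, 0.699 and 0.25 CPM in KP4 and 44.6, 33.0 and 43.9 in MiaPaca2, a log2 difference of −6.72 (SE 0.25), and IFIT1, IFIT2 and OASL were lower, at −2.53, −2.82 and −3.27. IRF7 and IFI35 went the other way, at 1.72 and 1.34. B2M of the class I complex was at 169, 164 and 165 CPM in KP4 and 199, 172 and 176 in MiaPaca2. Of 39 antigen presentation genes, 3 were called higher and 5 lower, with a median of 0.05; without MiaPaca2 library 2, 3 were called lower. Among cytokine and NF-kB genes, 7 of 59 were called higher in KP4 and 15 lower (11.9% and 25.4%), with a median of 0. The prostaglandin synthase gene PTGS2 was higher in KP4 at 18.05, 19.02 and 18.8 CPM against 3.96, 7.53 and 2.88, and CXCL8 did not pass the test (edgeR adjusted p 0.0564; 0.0149 without MiaPaca2 library 2).

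Of 33 genes of glycolysis and glucose uptake, 23 passed the test as lower in KP4 (69.7%, beside 31.1% of all genes tested), 7 of them at 2-fold or more, and 3 were called higher; the median was −0.42. PFKM, the muscle form of phosphofructokinase, was at 14.01, 13.2 and 12.8 CPM in KP4 and 101, 82.1 and 101 in MiaPaca2, a log2 difference of −2.83 (SE 0.09) with an edgeR adjusted p of 2.61e-18. HKDC1, a hexokinase, was at 0.158, 0.155 and 0.215 CPM in KP4 and 22.3, 15.8 and 19.4 in MiaPaca2, and HK1 and HK2 were lower, at −1.28 and −0.89. Transporters differed by gene: SLC2A3 (GLUT3) was higher in KP4 at 197, 189 and 197 CPM against 71.4, 65.0 and 49.6, and SLC2A1 (GLUT1) lower at 94.9, 84.2 and 95.9 against 135, 109 and 123. The lactate exporter gene SLC16A3 was lower, at −1.15. LDHA was at 895, 839.8 and 841 CPM in KP4 and 1112, 889.5 and 982 in MiaPaca2, with libraries that overlapped, although it passed the test at −0.21 (edgeR adjusted p 0.00397).

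Genes of mitochondrial metabolism lie in the nuclear and the mitochondrial genome. Of 47 nuclear genes of the TCA cycle and of pyruvate and glutamine use, 27 passed the test as lower in KP4 (57.4%, beside the same 31.1%), and 2 were called higher and 3 lower at 2-fold, with a median of −0.29. SDHA, a subunit of succinate dehydrogenase, was at 139.8, 132 and 139 CPM in KP4 and 285, 268 and 312 in MiaPaca2, and glutamine synthetase (GLUL) was higher at 157, 154 and 150.04 against 61.0, 81.8 and 56.6. Of 71 nuclear genes for oxidative phosphorylation, 35 passed as lower (49.3%), with a median of −0.14, and 1, NDUFA4L2, was called higher, by 1.98 on the log2 scale and 2.58 without MiaPaca2 library 2. All 13 protein-coding transcripts of the mitochondrial genome passed the test as higher in KP4, beside 31.9% of all genes tested, with a median of 0.64. MT-ND4, a subunit of complex I, was at 9679, 9435 and 9408 CPM in KP4 and 3826, 6107 and 3609 in MiaPaca2, a difference of 1.07 (SE 0.17) and of 1.35 without MiaPaca2 library 2. That library was the MiaPaca2 library nearest to KP4 for all 13. At 2-fold, 2 of the 13 were called, 4 without MiaPaca2 library 2 and 0 without MiaPaca2 library 1 or 3.

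Amino acid genes had 1 prominent group lower in KP4, that of arginine, proline, polyamines and branched-chain amino acids. Of 36 tested, 2 were called higher and 8 lower (5.56% and 22.2%, beside 8.85% and 10.6% of all genes tested). The median was −0.52 (−0.37 with genes at 0 counts set to their bound). CPS1, which makes carbamoyl phosphate, was at 0.752, 0.932 and 0.966 CPM in KP4 and 19.8, 15.1 and 15.5 in MiaPaca2, and ASS1, the argininosuccinate synthase of arginine synthesis, at 5.86, 4.89 and 4.58 and 16.2, 15.9 and 16.4. ODC1, the first enzyme of polyamine synthesis, was higher in KP4 at 1206, 1207 and 1167 CPM against 511, 589 and 499.8. The 2 branched-chain transaminases differed in opposite directions, the cytosolic BCAT1 by 1.30 and the mitochondrial BCAT2 by −1.67. Serine and stress response genes were called higher in 8 of 40 and lower in 5. PHGDH, the first enzyme of serine synthesis, was at 129.7, 132 and 132 CPM in KP4 and 117, 149.8 and 128 in MiaPaca2 (edgeR adjusted p 0.989), and ASNS did not pass the test either. The cystine transporter gene SLC7A11 was at 92.0, 94.9 and 99.6 CPM in KP4 and 22.0, 33.2 and 20.02 in MiaPaca2, a log2 difference of 1.93 (SE 0.14). In the NAD group, KYNU and NMNAT2 were higher in KP4, by 2.42 and 2.37, and QPRT and NAMPT lower, at −5.92 and −1.09. Of the nucleotide and gemcitabine genes, 0 of 42 were called higher and 4 lower; DCK, the kinase that activates gemcitabine, passed the test at 0.83, and the deaminase gene CDA was at 0.0396, 0.155 and 0.0358 CPM in KP4 and 1.65, 0.894 and 1.37 in MiaPaca2.

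For lipids, 8 of 48 genes of cholesterol and fatty acid synthesis were called higher in KP4 and 4 lower, with a median of 0.13. The shares were 16.7% and 8.33%, beside 8.85% and 10.6% of all genes tested. The sterol enzymes SQLE, HMGCS1 and MSMO1 were higher by 1.30, 1.35 and 1.36. The lipid carrier APOE was at 105, 106 and 108 CPM in KP4 and 21.4, 36.2 and 25.8 in MiaPaca2. SCD, the stearoyl-CoA desaturase, was at 769, 814 and 739.5 CPM in KP4 and 787, 1112 and 779.6 in MiaPaca2 and did not pass the test (edgeR adjusted p 0.19), and fatty acid synthase (FASN) passed below 2-fold at −0.33. Of 38 genes of fatty acid oxidation and peroxisomes, 0 were called higher and 3 lower, with a median of −0.20.

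Detoxification and iron genes held some of the largest metabolic differences. ALDH1A1, an aldehyde dehydrogenase that oxidises retinal (chromosome 9, 72900662 to 73080442), was at 24.9, 27.1 and 27.8 CPM in KP4 and 1083, 829.9 and 979 in MiaPaca2, a log2 difference of −5.18 (SE 0.09) with an edgeR adjusted p of 1.32e-13. The ferritin light chain gene FTL was at 404, 384 and 401 CPM in KP4 and 1958, 1788 and 2154 in MiaPaca2, and the heavy chain gene FTH1 at 867, 911 and 957 and 574, 566 and 715. The chains thus differed in opposite directions, by −2.31 and 0.56, and both have many pseudogenes, so these counts are uncertain. HMOX1, the heme oxygenase induced by oxidants, was at 117, 118 and 117 CPM in KP4 and 19.1, 31.5 and 20.8 in MiaPaca2 (log2 2.31, SE 0.14). The aldo-keto reductase gene AKR1C1 had 2 counts over the KP4 libraries and was at 11.1, 10.1 and 10.2 CPM in MiaPaca2, a ratio of 415 (95% interval 114 to 3432); its near-identical family members make it uncertain. Of 43 genes of the NRF2, glutathione and ferroptosis group, 4 were called higher in KP4 and 9 lower, with a median of −0.13. The shares were 9.30% and 20.9%, beside 8.85% and 10.6% of all genes tested. NQO1, a target of NRF2, was at 408, 395 and 413 CPM in KP4 and 471, 396 and 462 in MiaPaca2, with overlapping libraries (log2 −0.13, edgeR adjusted p 0.0204), and GPX4, which reduces lipid peroxides, differed by 0.15. Of 39 aldo-keto reductase, ALDH and drug-metabolising genes, 5 were called higher and 11 lower, with a median of −0.14, and of 27 iron genes 4 and 6, with a median of 0.18. Metallothioneins and zinc transporters were called lower in 6 of 21 (28.6%) and higher in 0, with a median of −0.36. MT1E was at 11.7, 9.47 and 8.73 CPM in KP4 and 143, 122 and 170.5 in MiaPaca2, and MT1A at 0 counts and 10.3, 7.02 and 11.5 CPM.

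Lysosome and autophagy genes were called higher in 9 of 61 and lower in 3 (14.8% and 4.92%, beside 8.85% and 10.6% of all genes tested), with a median of 0.19. The autophagy receptor gene SQSTM1 was at 2358, 2398 and 2432 CPM in KP4 and 685, 1035 and 731 in MiaPaca2, a log2 difference of 1.55 (SE 0.13), and the cholesterol transporter gene NPC1 was higher by 1.08. TFEB, a master factor of lysosome genes, passed the test at 0.82. Against this direction, the cathepsin genes CTSZ and CTSH were nearly absent from KP4, CTSZ at 0.475, 2.10 and 0.93 CPM in KP4 and 165, 119 and 164 in MiaPaca2 and CTSH at 0.594, 0.233 and 0.358 and 20.5, 15.5 and 21.2, and the acid lipase gene LIPA was lower, at −2.53. Cytosolic ribosomal protein genes differed little, with a median of −0.12 over 55 genes, and RPL39L was the 1 called higher.

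Smaller groups gave counts in both directions. Of 33 nuclear receptor genes, 7 were called higher in KP4 and 3 lower, with a median of 0.11: the early response gene NR4A1 was at 11.2, 15.4 and 14.7 CPM in KP4 and 1.85, 3.11 and 2.83 in MiaPaca2, and the retinoic acid receptor gene RARB had 3 counts in KP4 and was at 5.56, 4.85 and 3.37 CPM in MiaPaca2, a ratio of 122 (95% interval 41.3 to 593). Of 27 HOX genes, 6 were called higher and 3 lower, with a median of 0.02; HOXB9 was at 31.4, 31.2 and 34.3 CPM in KP4 and 146, 139.9 and 159.5 in MiaPaca2. Of 18 BCL2 family genes, 2 were called higher and 0 lower (11.1% and 0%, beside 8.85% and 10.6% of all genes tested). Cancer-testis genes were mostly too low to test, with 6 of 46 tested and 3 of those called higher in KP4. Among cyclins, CCND2 was higher in KP4 at 27.8, 27.4 and 25.001 CPM against 9.31, 7.36 and 8.46. GAPDH and ACTB, often used as reference genes, passed the test at 0.27 and −0.73.

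By chromosome, medians over protein-coding genes ran from −0.33 on chromosome 21 (121 genes) and −0.27 on chromosome 16 (613 genes) to 0.20 on chromosomes 9 (543 genes) and 11 (761 genes). These 4 medians kept their sign in every alternative run for them. The quartiles of every chromosome spanned 0.

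The difference between the lines was not the same under trametinib. Over all genes tested, 5828 passed edgeR's test of the interaction of line and treatment (36.1%), and of 246 named genes that were tested 139 did so (56.5%). Many named genes were picked for a large difference in DMSO, which is itself part of the interaction. That choice can raise their share and favour differences that are smaller in trametinib, so the shares are not comparable. KRT19 and MMP10 kept their direction, KRT19 at −5.77 in DMSO and −4.47 in trametinib on the log2 scale and MMP10 at 5.05 and 3.47. KRT7 and the basal-like list member TNS4, at 1.51 and −4.63 in DMSO, did not pass the test in trametinib. There they were at 0.57 and −0.54 (edgeR adjusted p 0.106 and 0.257). The interaction passed for TNS4 (edgeR adjusted p 8.86e-07) and not for KRT7 (0.0860). Several differences were smaller in trametinib: MAN1A1 went from 2.96 to 1.32, PLK2 from −3.97 to −2.00, FGFR1 from 1.23 to 0.12 and ITGB4 from −3.35 to −1.25. Each of these 4 passed the interaction test. KP4 genes in general kept a higher share of their level in MiaPaca2 in trametinib. The 0.1 percentile of that share was 25.6%, against 15.4% in DMSO. The part of this general shift in the differences of single genes was not tested. For DUSP6, with 2.23 in DMSO and 1.37 in trametinib, the interaction did not pass (edgeR adjusted p 0.532).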

How the data were processed

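The authors deposited a table of raw read counts per gene for 12 libraries, with GENCODE 29 gene identifiers. STAR, DESeq2 and the builds GRCh38 and hg38 are named per the submitters' processing notes; the counting program, its strand setting and the handling of multiply mapped reads were not given in the sources used here. Samples were grouped by their labels, 3 libraries a group. The 58735 genes were filtered with filterByExpr (minimum count 10), which left 16133, and scaled by TMM. They were tested with edgeR 4.0.16 (R 4.3.3, limma 3.58.1), using a robust quasi-likelihood fit with 1 mean per group over all 12 libraries and Benjamini-Hochberg adjustment over all genes tested. The biological coefficient of variation was 5.47%. The code was tested on simulated data. Alternatives were DESeq2 1.42.0, limma-voom, other scalings and filters, a test against 2-fold, the 6 libraries alone, a replicate block and leaving out each library.

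Members and lists were chosen with earlier results of these data known. Named genes were the 12 largest differences each way of at least 10 CPM, the 2 highest and 2 lowest called members of each list of at least 1 CPM, fixed lineage, signalling and metabolic genes, the 5 most abundant genes of each line, and genes at 0 in one line and at least 20 CPM in the other. Further list members, gene runs and promoters were picked as examples after their values were seen. Promoter windows came from RefSeq GRCh38.p14. Some genes of the lists are not reported here. Ratios of small counts carry 95% exact intervals for counting error only.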

Additional observations from a re-analysis of the deposited data

Results flagged for a closer look

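Among 246 named genes that were tested, the difference between the lines was of another size in trametinib than in DMSO for 139 by edgeR's interaction test. For 12 of the genes reported here it was flagged as opposite in direction in the 2 treatments. The flag asked for no 2-fold difference, and MYC (log2 −0.32) and NQO1 (−0.13), for example, were under 2-fold in DMSO. The interaction is the line difference in DMSO minus that in trametinib, on the log2 scale. Genes higher in KP4 in DMSO and lower there in trametinib were BCL2A1 with an interaction of 2.51, CCND1 with 1.05, ERAP1 with 1.28, IFI35 with 2.54, IRF7 with 2.41, LAMP3 with 2.89, LIF with 2.52 and PSMB8 with 1.49. Genes lower in KP4 in DMSO and higher there in trametinib were FASN with −1.03, MYC with −0.50, NQO1 with −0.62 and PHLDA3 with −2.62. LIF, for example, was 1.502 in DMSO and −1.01 in trametinib, and IRF7 was 1.72 and −0.69. Of the 12, IFI35, IRF7, PSMB8 and ERAP1 are genes of interferon response or antigen presentation.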

How the results depend on the processing

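Of 3932 combinations of a named gene and 1 of 16 alternative settings, 3886 kept their direction and their side of an adjusted p of 0.05, 34 lost that p and 12 gained it; no called gene reversed. Of the 34, 28 came from testing against a 2-fold difference (glmTreat), which called 682 genes higher in KP4 and 1198 lower. Outside that setting, the side of that p changed in FOSL1, CXCL8, B2M, PHGDH, SCD, NQO1 and GPX4, none of which was called at 2-fold. With 2-fold required too, 17 of 3686 combinations outside glmTreat lost the call (PDK2, MT-ND5, MT-ND4, PSMB8, BCL2A1, ERAP1, NNMT and SLC1A4) and 1 gained it (GATA6). DESeq2 called 1348 genes higher and 1746 lower, and the 6 untreated libraries alone 1249 and 1548. Leaving out 1 library gave 1251 to 1634 genes higher, 1628 to 1777 lower and 9453 to 10378 past the test. Raising the minimum to 5 CPM left 60 of the genes at 0 counts in KP4. With the replicate block, 1434 genes were higher, 1692 lower and 10100 past the test. Libraries of the same number correlated at 0.0121, 0.0220 and 0.0326, each the highest for its number and none over 0.1, so the numbers were not taken as pairs. Without MiaPaca2 library 2, 87 of 99 named genes called higher in KP4 and 94 of 109 called lower differed more. Depth limits genes at 0 counts, where only a lower bound of the fold is known.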

Other observations

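Genes of neuroendocrine function not described above went in both directions. The granin gene CHGB was higher in KP4 by 1.57 on the log2 scale, and the somatostatin receptor gene SSTR5 had 0 counts in KP4. The synaptotagmin gene SYT1 was lower in KP4, with a log2 difference of −2.29.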
